A study of Mus musculus with 36 samples.

Results

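Messenger RNA of 10 genes that receive, pass on or limit interferon signals was followed in mouse embryonic fibroblasts, connective tissue cells taken from embryos and grown in culture. The genes are the receptor chains Ifnar1, Ifnar2, Ifngr1 and Ifngr2, the Janus kinases Jak1, Jak2 and Tyk2, and the inhibitors Socs1, Socs3 and Cish. They were chosen by name for their place in the pathway, with earlier results of these data known. They are 10 of 49585 genes in the deposited tables, and all 10 passed the filter on low counts that left 13364 genes for testing. The fibroblasts carried 2, 1 or 0 copies of the Tbk1 knock-in allele N129D, which changes 1 amino acid of a kinase that acts upstream of interferon production. Homozygous lines (N129D/N129D, hom) were E1.4, E2.2, then E2.9. Heterozygous lines (N129D/wt, het) were E1.3, E2.5, E2.6, then E2.8. Wild-type lines (wt/wt, WT) were E1.5, E2.1, then E2.7, and values of single lines are given in that order. Each line gave 3 libraries: 1 after 4 h with pI:pC (synthetic double-stranded RNA, here poly(I:C)), 1 after 4 h with antimycin and oligomycin (AO, blockers of the respiratory chain and of ATP synthase), and 1 untreated. The sources used here state no dose, and the design text speaks of replicates in fours, which only the het groups have. For WT line E1.5 alone there were 6 more libraries, 1 per treatment from a dense and 1 from a sparse culture (high and low density in the labels). P-values rest on the spread between libraries of different lines, except in the density comparison, where all libraries come from 1 line. An alternative fit compared each line with itself (line as a replicate block). Its p-values rest on how the changes within lines varied, with differences in level between lines removed.

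Type I interferons bind the IFNAR1 and IFNAR2 chains, whose tails carry TYK2 and JAK1, and interferon gamma binds the IFNGR1 and IFNGR2 chains, whose tails carry JAK1 and JAK2. The kinases phosphorylate STAT factors, which enter the nucleus and bind interferon response elements (ISRE) or gamma-activated sites (GAS). SOCS1, SOCS3 and CISH are made from STAT target genes and feed back on the receptors or kinases: SOCS1 on interferon signalling, SOCS3 mainly on cytokines that use the gp130 receptor chain, and CISH on STAT5-using receptors. TBK1 phosphorylates IRF3, which switches on Ifnb1, the gene of interferon beta, after double-stranded RNA is sensed.

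The promoters of the 3 inhibitor genes are shown because the levels of these genes moved most. Each runs from 250 bases before to 50 bases from the RefSeq start (GRCm38.p6), 5′ to 3′ on the strand of the gene, with capitals marking matches, on either strand, to TTCNNNGAA (GAS) or to the core of an ISRE (GAAA, any 2 bases, GAAA). The windows are chr16:10785487-10785786 (minus strand) for Socs1, chr11:117969317-117969616 (minus strand) for Socs3 and chr9:107296409-107296708 (plus strand) for Cish. The Socs1 window covers the start of the annotated gene. The Socs3 and Cish windows lie wholly inside the annotated genes (chr11:117966079-117970047 and chr9:107296026-107302784). For these genes the bases before the annotated gene start were therefore not searched.
Socs1: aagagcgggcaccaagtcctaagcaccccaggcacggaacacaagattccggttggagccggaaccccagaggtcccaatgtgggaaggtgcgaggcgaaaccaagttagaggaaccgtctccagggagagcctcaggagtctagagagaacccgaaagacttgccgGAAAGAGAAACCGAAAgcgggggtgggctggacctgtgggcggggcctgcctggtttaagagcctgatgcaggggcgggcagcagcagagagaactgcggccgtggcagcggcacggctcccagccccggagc
Socs3: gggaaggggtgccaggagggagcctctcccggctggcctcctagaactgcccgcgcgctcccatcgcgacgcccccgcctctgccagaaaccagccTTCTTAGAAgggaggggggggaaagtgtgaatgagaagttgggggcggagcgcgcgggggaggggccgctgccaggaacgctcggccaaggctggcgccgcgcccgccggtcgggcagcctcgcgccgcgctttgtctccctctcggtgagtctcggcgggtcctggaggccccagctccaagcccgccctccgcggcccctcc
Cish: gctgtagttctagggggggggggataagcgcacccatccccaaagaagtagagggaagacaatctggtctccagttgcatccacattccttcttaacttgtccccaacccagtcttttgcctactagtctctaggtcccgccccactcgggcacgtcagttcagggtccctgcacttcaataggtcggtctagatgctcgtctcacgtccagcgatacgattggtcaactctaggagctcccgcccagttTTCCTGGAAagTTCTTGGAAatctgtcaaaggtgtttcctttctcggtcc
With the start base counted as 0, the Socs1 window held 2 ISRE cores, GAAAGAGAAA from -83 to -74 and GAAACCGAAA from -77 to -68, which overlap by 4 bases. The Socs3 window held 1 GAS, TTCTTAGAA, from -154 to -146. The Cish window held 2 GAS, TTCCTGGAA from 0 to 8 and TTCTTGGAA from 11 to 19. Of 32817 mouse promoter windows of the same length, 3.43% held at least 1 ISRE core and 0.222% at least 2, and 8.29% held at least 1 GAS and 0.457% at least 2. Ifnar1 and Ifnar2 had 1 GAS each in their windows, and the other 5 members had neither motif. These matches describe letters, not bound sites.

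On GRCm38, Ifnar2, Ifnar1 and Ifngr2 follow each other on the plus strand of chromosome 16, at chr16:91372783-91405589, chr16:91485238-91507441 and chr16:91547072-91565623. Ifngr1 lies at chr10:19591949-19610229, Jak1 at chr4:101152367-101265282, Jak2 at chr19:29251828-29313080, Tyk2 at chr9:21104068-21131243, Socs1 at chr16:10782240-10785536, Socs3 at chr11:117966079-117970047 and Cish at chr9:107296026-107302784. Annotated genes overlap Ifnar2, Jak1, Tyk2 and Cish, and reads of such pairs could be split or, on opposite strands, could not be told apart unless strand was used in counting, which is not stated. The largest of these neighbours, Raver2, had 468 counts over 30 libraries, against 64915 for Jak1.

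The 30 main libraries held 3689144 to 14879227 counts each, those of dense cultures 16474011 to 22756870 and those of sparse cultures 5391393 to 6307963. All 15 fibroblast markers were detected over the pooled libraries, with a summed level of 10460 to 22096 CPM (the usual depth-normalised read count, here with TMM-scaled library sizes). Fn1 had the highest median of them, at 6200 CPM, while Dcn and Lum fell to 0 CPM at their lowest. Lymphoid markers summed to at most 0.307 CPM and erythroid markers to at most 1.11 CPM. The 17 macrophage markers summed to 168 to 274 CPM in the 3 libraries of hom line E2.9 to 39.1 to 63.2 CPM in those of het line E2.6, and to 3.0 to 10.9 CPM in the other 8 lines. Muscle markers summed to 63.3 to 97.1 CPM in hom line E1.4 and to at most 47.9 CPM in the others, and epithelial markers to 84.6 to 103.8 CPM in het line E2.5, 47.6 to 74.2 CPM in hom line E1.4 and at most 43.3 CPM in the others. Endothelial markers were highest in het line E2.6, at 26.8 to 41.4 CPM against 9.95 to 24.9 CPM in the others, and neural markers summed to 151.7 to 564.3 CPM, mostly Nes and Tubb3. Single markers of these lists differed: Myod1 reached at most 0.378 CPM, Epcam 1.66 CPM, Dcx 0.318 CPM, Pecam1 0.686 CPM and Cdh5 0.720 CPM. Of the endothelial markers, Kdr reached 32.7 CPM in line E2.6. Tnnt2 reached 57.5 CPM and Des 38.4 CPM in line E1.4, and Krt18 reached 35.6 CPM and Cdh1 19.5 CPM in line E2.5. A 1-amino-acid change leaves no mark in gene counts, so the genotype labels could not be checked here.

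In untreated cells Jak1 stood far above the other members. Per kilobase of exon, Jak1 averaged 39.7 ± 12.7 CPM in hom, 41.9 ± 4.43 CPM in het and 45.0 ± 1.86 CPM in WT lines (SD, n = 3, 4 and 3). The interferon gamma receptor chains and Ifnar1 came next, at 12.5 to 16.2 CPM per kilobase by genotype mean, and Ifngr1 and Ifngr2, as well as Ifngr2 and Ifnar1, overlapped in their spread within every genotype. Ifnar2 and Jak2 followed at 8.72 to 10.8 CPM per kilobase and overlapped each other. In hom lines Ifnar2 also overlapped Ifnar1. Socs3 had 8.44 ± 1.65 CPM per kilobase in hom, 5.39 ± 2.02 in het and 6.56 ± 2.17 in WT lines. Socs3 overlapped Jak2 in hom, Tyk2 in het and Ifnar2 in WT lines. Tyk2, the kinase on IFNAR1, was the lowest of the signal carriers, at 2.74 to 2.89 CPM per kilobase. Socs1 and Cish were at the bottom, at 0.408 to 0.635 and 0.217 to 0.441 CPM per kilobase, and did not differ beyond their spread in hom or WT lines.

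The receptor and kinase genes kept a narrow range over all 30 libraries, while the inhibitors did not. The highest library over the lowest was 1.71-fold for Ifngr1, 1.84-fold for Ifnar1, 1.92-fold for Ifnar2, 1.94-fold for Ifngr2, 2.43-fold for Jak1, 2.62-fold for Jak2 and 2.68-fold for Tyk2. It was 8.05-fold for Cish, 20.5-fold for Socs3 and 75.4-fold for Socs1. Counting error bears most on the low genes: Socs1 had 3 to 309 counts per library and Cish 6 to 66, against 658 to 4867 for Jak1. One hom line stood apart in Jak1: E1.4 had 163.9 to 279.6 CPM in its 3 libraries, below every library of the other 9 lines at 284.1 to 398.4 CPM. This line also had the highest muscle marker sums, 63.3 to 97.1 CPM, whose part in its Jak1 level was not tested.

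**Figure D1:**
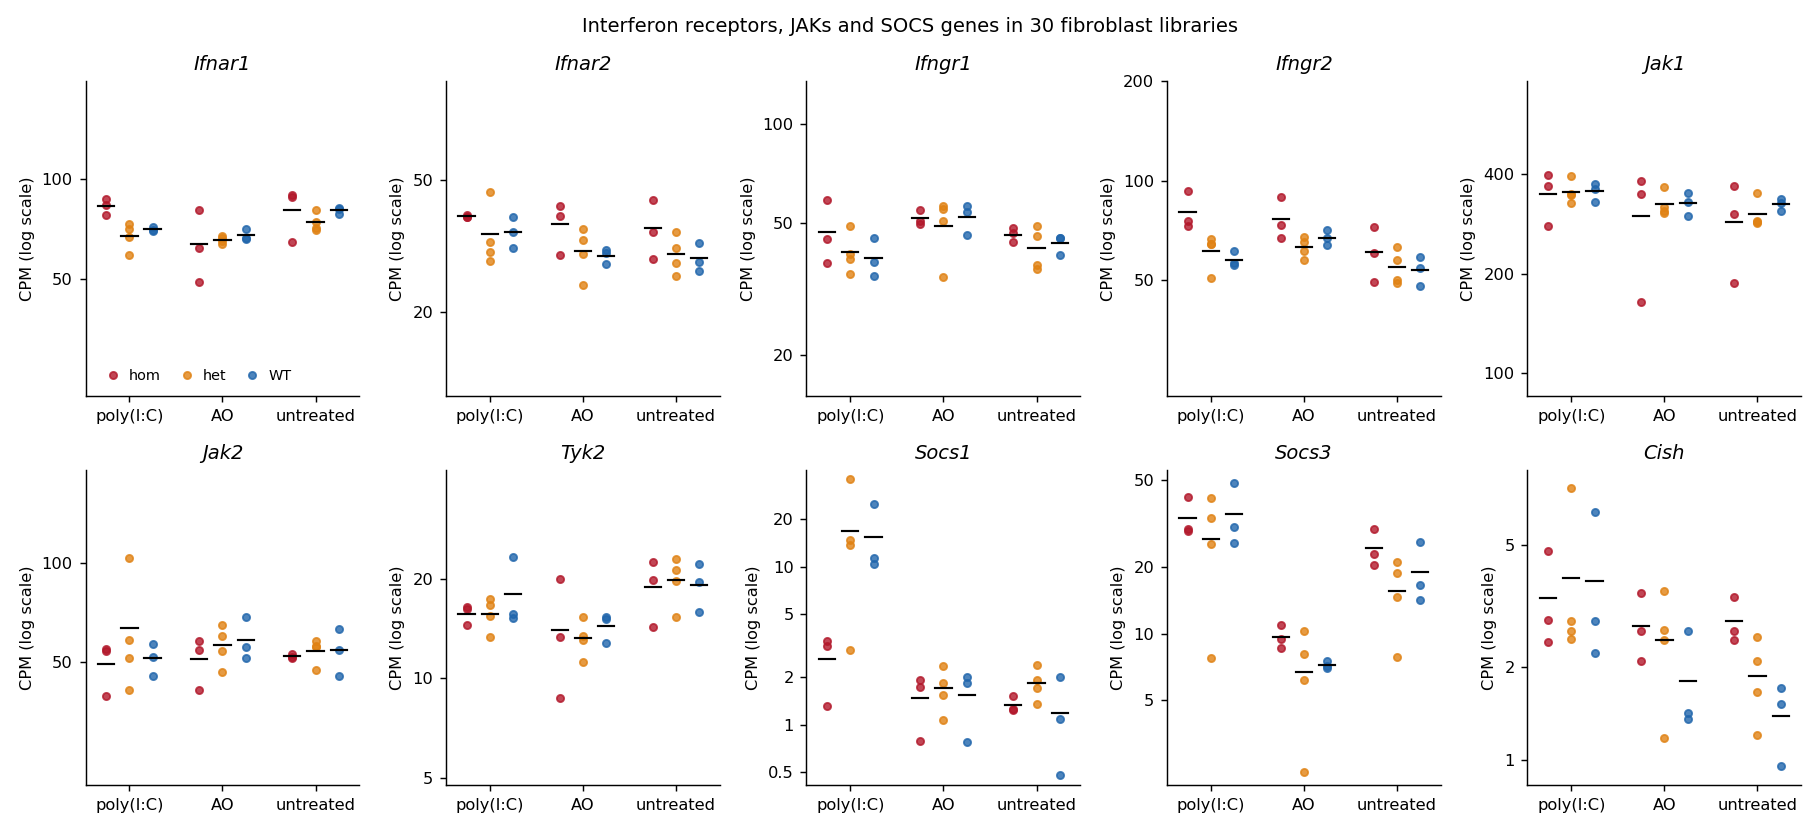
Level of each member in 30 libraries, in CPM on a log axis, by treatment (poly(I:C), AO, untreated) and genotype (hom, het, WT). Points are lines and bars are group means; Socs1 under poly(I:C) is 1.303 to 3.38 CPM in hom lines and 10.4 to 24.9 CPM in WT lines, while the 4 receptor chains vary by at most 1.94-fold over all libraries.

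The first comparison asks how double-stranded RNA moved these genes. Averaged over the 3 genotypes, 4 of the 10 members passed under poly(I:C), all higher: Socs1, Socs3, Cish and Ifngr2. That is 4 of 10 where 21.7% of all genes passed in either direction and 9.91% passed as higher (edgeR's quasi-likelihood test, Benjamini-Hochberg adjusted p under 0.05). Without WT line E2.7, het line E2.5 or hom line E2.9 the count was 1, it was 2 without WT line E1.5, WT line E2.1, het line E2.8 or hom line E2.2, and it was 2 with no low-count filter. The median log2 change was 0.20 over the members and -0.000946 over all genes. Within single genotypes only Socs1 passed, in het and in WT cells.

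Among the receptor chains, Ifngr2, the signalling chain for interferon gamma, had 72.7, 75.2 and 92.9 CPM under poly(I:C) in hom lines, against 72.1, 49.3 and 60.4 CPM untreated. In het lines it had 64.1, 64.2, 50.7 and 66.5 CPM under poly(I:C), against 62.7, 49.0, 57.5 and 50.1 CPM untreated. In WT lines it had 56.1, 61.0 and 55.3 CPM under poly(I:C), against 58.8, 47.9 and 54.3 CPM untreated. It was higher in 8 of 10 lines, and only in hom cells did the treated and untreated levels not overlap, as they did not for 17.5% of all genes there. The mean log2 change was 0.22 ± 0.08 (SE), with an edgeR adjusted p of 0.0404. That call was lost when any 1 of 7 lines was left out, with adjusted p up to 0.185 without WT line E2.1.

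Ifnar1 changed by -0.10 ± 0.07, Ifnar2 by 0.19 ± 0.10 and Ifngr1 by -0.05 ± 0.10 on the log2 scale (SE), none past the threshold. Their 95% intervals ran from -0.24 to 0.05, from -0.01 to 0.40 and from -0.25 to 0.14. Ifnar1 was lower in 8 of 10 lines. In WT lines it had 69.7 to 71.9 CPM under poly(I:C), against 78.4 to 81.8 CPM untreated, without overlap, as for 33.9% of all genes there. The kinases did not pass either: Jak1 changed by 0.21 ± 0.12, Jak2 by 0.02 ± 0.13 and Tyk2 by -0.23 ± 0.13 on the log2 scale. Jak1 was higher in 10 of 10 lines, by 0.09 to 0.58 log2 units within a line. When each line was compared with itself (line as a replicate block), 7 members passed, where 39.3% of all genes did. The added 3 were Jak1 at 0.23 ± 0.05 (edgeR adjusted p = 0.00189), Ifnar2 at 0.19 ± 0.07 (adjusted p = 0.0355) and Tyk2, which was lower at -0.22 ± 0.08 (adjusted p = 0.0368). Jak2 in het line E2.5 reached 103 CPM under poly(I:C), against 56.0 CPM untreated, while the other 9 lines had 39.4 to 58.2 CPM under poly(I:C). Line E2.5 had the highest epithelial marker sums, whose part in its levels was not tested.

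Socs1 moved most. Its estimated change was smallest in hom cells, but its response in hom or het cells did not differ from that in WT cells past the edgeR threshold. Socs1 had 1.303, 3.14 and 3.38 CPM under poly(I:C) in hom lines, against 1.23, 1.25 and 1.51 CPM untreated. It had 14.8, 35.9, 2.96 and 13.8 CPM in het lines, against 1.35, 2.40, 1.92 and 1.71 CPM untreated. It had 10.4, 11.4 and 24.9 CPM in WT lines, against 0.476, 1.99 and 1.09 CPM untreated. Every het and WT line was above all untreated libraries of its genotype, het line E2.6 by little. Line E2.6 had raised macrophage markers and a raised endothelial marker sum, with Kdr up to 32.7 CPM. Hom line E1.4 lay within the untreated range of its genotype. The log2 change was 0.93 ± 0.63 in hom (adjusted p = 0.65), 3.19 ± 0.53 in het (adjusted p = 0.000886) and 3.67 ± 0.65 in WT cells (SE; edgeR adjusted p = 0.00259). Averaged over genotypes, Socs1 changed by 2.597 ± 0.349 (edgeR adjusted p = 1.1e-05), was higher in 10 of 10 lines, and kept its call whichever line was left out. Called members were 0 of 10 in hom, 1 of 10 in het and 1 of 10 in WT cells, where 1.26%, 4.63% and 3.17% of all genes passed.

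The WT call for Socs1 was lost without line E1.5 (adjusted p = 0.0727) or without line E2.7 (adjusted p = 0.0911), with log2 changes of 3.51 and 3.10. The het call was lost in a fit on the het libraries of both groups alone (log2 change 3.22, edgeR adjusted p = 0.067). In hom cells the count of 0 by edgeR came with 1 member, Ifngr2, at an unadjusted p under 0.05 and with 0 members by DESeq2. With the replicate block het cells had 2 called members, Socs1 and Socs3, where 17.7% of all genes passed. With it hom cells had 2 called members, Ifngr2 at 0.42 ± 0.13 (adjusted p = 0.0482) and Jak1 at 0.33 ± 0.10 (adjusted p = 0.0356), where 9.53% of all genes passed.

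Socs3, the inhibitor on gp130 receptors, was already well expressed before treatment. It had 29.2, 41.6 and 29.7 CPM under poly(I:C) in hom lines, against 20.6, 29.7 and 22.9 CPM untreated. It had 33.6, 25.6, 7.74 and 41.2 CPM in het lines, against 21.1, 14.6, 7.81 and 18.8 CPM untreated. It had 25.7, 30.4 and 48.3 CPM in WT lines, against 14.1, 16.7 and 26.1 CPM untreated. It was higher in 9 of 10 lines, het line E2.6 was level, and treated and untreated ranges overlapped within each of the 3 genotypes. The mean log2 change was 0.71 ± 0.24 (SE; edgeR adjusted p = 0.0379), a call that was lost when any 1 of 9 lines was left out. Against each line's own untreated library it was 0.68 ± 0.09 (adjusted p = 6.4e-06), and it then also passed in het (0.71 ± 0.15, adjusted p = 0.00193) and WT cells (0.87 ± 0.16, adjusted p = 0.00133).

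Cish, the STAT5-linked inhibitor, stayed low. It had 2.87, 2.42 and 4.81 CPM under poly(I:C) in hom lines, against 2.46, 2.63 and 3.40 CPM untreated. It had 2.64, 7.67, 2.47 and 2.83 CPM in het lines, against 1.203, 1.66, 2.52 and 2.11 CPM untreated. It had 2.23, 2.84 and 6.403 CPM in WT lines, against 0.953, 1.71 and 1.52 CPM untreated. Only in WT cells did the treated and untreated lines not overlap, as they did not for 33.9% of all genes there. The mean log2 change was 0.91 ± 0.27 (SE; edgeR adjusted p = 0.0162), with adjusted p of 0.0518 without het line E2.5, 0.0596 without hom line E2.9 and 0.0748 without WT line E2.7. In WT cells it was 1.42 ± 0.50 (adjusted p = 0.124), and 1.32 ± 0.43 with the replicate block (adjusted p = 0.0401), where Socs1, Socs3 and Cish were the 3 called members and 15.5% of all genes passed.

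**Figure D2:**
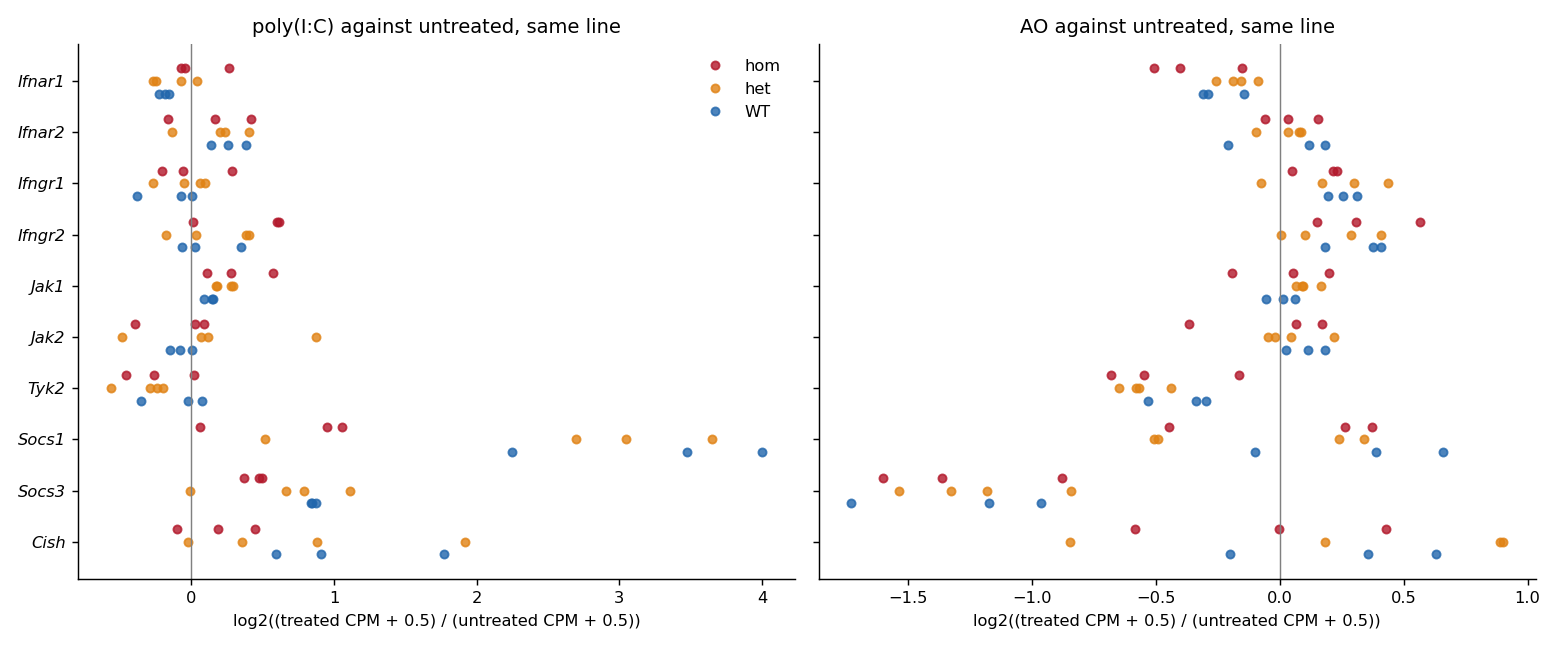
Change of each member within each of the 10 lines, as log2 of treated over untreated CPM with 0.5 added to both, under poly(I:C) (left) and AO (right). Points are lines, coloured hom, het or WT; under poly(I:C) the 3 hom lines and het line E2.6 sit lowest for Socs1, and under AO all 10 lines lie below 0 for Socs3, Tyk2 and Ifnar1.

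Around the members, genes of the pathway passed in both directions under poly(I:C), averaged over genotypes, where 21.7% of all genes passed. Of the 21 interferon ligand genes, 2 had enough counts to test, and Ifnb1 rose (edgeR adjusted p = 3.7e-05). Its counts were 0 in all 10 untreated libraries, which allows up to 0.0445 CPM over them pooled. Of the 6 gp130 cytokine genes tested, Il6 rose by 3.69 ± 0.37 and Lif by 1.61 ± 0.34, while Clcf1 fell by 0.62 (SE 0.12). Of 8 JAK and STAT partners tested, Stat2 (1.39 ± 0.31) and Irf9 (1.06 ± 0.26) rose and Stat5b fell by 0.27 (SE 0.09). Of the other 5 SOCS genes, Socs4 fell by 0.23 (SE 0.08) and 4 did not pass, Socs2 and Socs7 among them. Of 13 other pathway inhibitors, 3 rose and 1 fell, the phosphatase genes Ptpn1 (0.40 ± 0.07) and Ptpn2 (0.38 ± 0.09) among the higher ones. Of 22 type I interferon targets 18 rose, of 16 type II targets tested 13 rose, and of 16 STAT3 and STAT5 targets tested 9 rose, with none lower in these 3 lists.

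AO lowered 3 members and raised 1. Averaged over the 3 genotypes, Socs3, Tyk2 and Ifnar1 fell and Ifngr2 rose, 4 of 10 members. That is near the share over all genes, of which 33.7% passed. The median log2 change was 0.05 over the members and -0.02 over all genes. No leave-one-line-out fit lost any of these 4 calls.

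Socs3 had 10.96, 9.46 and 8.60 CPM under AO in hom lines, against the untreated 20.6, 29.7 and 22.9 CPM. It had 8.08, 6.16, 2.36 and 10.3 CPM in het lines, against 21.1, 14.6, 7.81 and 18.8 CPM untreated. It had 6.99, 7.11 and 7.51 CPM in WT lines, against 14.1, 16.7 and 26.1 CPM untreated. All 10 lines were lower, by 0.84 to 1.73 log2 units, and the ranges did not overlap in hom or WT cells, as for 21.7% and 36.9% of all genes there. The mean log2 change was -1.31 ± 0.25 (SE; edgeR adjusted p = 0.000276). Within single genotypes it was -1.34 ± 0.46 in hom, -1.21 ± 0.40 in het and -1.39 ± 0.46 in WT cells, just short of the threshold (adjusted p = 0.0562, 0.0525 and 0.0648), and with line as a replicate block each passed (adjusted p = 2.24e-05, 1.08e-05 and 2.19e-05).

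Tyk2 had 8.72, 19.96 and 13.4 CPM under AO in hom lines, against 14.3, 22.5 and 19.8 CPM untreated. It had 15.3, 13.4, 11.2 and 13.04 CPM in het lines, against 23.01, 21.3, 15.4 and 19.7 CPM untreated. It had 12.8, 15.3 and 15.1 CPM in WT lines, against 15.9, 19.5 and 22.2 CPM untreated. Again 10 of 10 lines were lower, and het and WT groups did not overlap with their untreated ones, as for 18.2% and 36.9% of all genes there. The mean log2 change was -0.47 ± 0.13 (SE; edgeR adjusted p = 0.00521).

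Ifnar1, whose tail TYK2 binds, had 48.8, 80.6 and 62.1 CPM under AO in hom lines, against 64.8, 89.8 and 88.4 CPM untreated. Het lines had 63.9 to 67.4 CPM under AO, against 70.5 to 80.7 CPM untreated, and WT lines had 65.8 to 71.0 CPM, against 78.4 to 81.8 CPM untreated. The fall was seen in 10 of 10 lines and was small, at -0.26 ± 0.07 on the log2 scale (SE; edgeR adjusted p = 0.00675). Ifngr2 went the other way: it had 89.4, 73.3 and 67.0 CPM under AO in hom lines, against 72.1, 49.3 and 60.4 CPM untreated. It had 57.6 to 67.3 CPM in het lines, against 49.0 to 62.7 CPM untreated, and 63.7 to 70.6 CPM in WT lines, against 47.9 to 58.8 CPM untreated. It was higher in 10 of 10 lines, least in het line E2.6, by 0.0029 log2 units, with a mean log2 change of 0.29 ± 0.08 (SE; edgeR adjusted p = 0.00557).

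The other 6 members did not pass under AO. Ifngr1 was higher in 9 of 10 lines with a mean log2 change of 0.22 ± 0.09 (SE; edgeR adjusted p = 0.0813), and passed with the replicate block (0.21 ± 0.07, adjusted p = 0.0133), which called 5 members where 50.2% of all genes passed. Socs1 changed by 0.15 ± 0.36, with a 95% interval from -0.59 to 0.90, and Cish by 0.23 ± 0.27, with an interval from -0.33 to 0.79. Jak1 changed by 0.06, with an interval from -0.19 to 0.30, Jak2 by 0.05, from -0.21 to 0.30, and Ifnar2 by 0.03, from -0.17 to 0.23. Within single genotypes edgeR called 0 of 10 members in hom, het and WT cells, where 13%, 11.1% and 7.65% of all genes passed. At an unadjusted p under 0.05 the counts were 3, 2 and 2, and DESeq2 called 1, 2 and 1, where it called 17.7%, 14% and 10.3% of all genes. With the replicate block, hom cells had 3 called members (Socs3, Tyk2 and Ifnar1, background 29.4%), het cells 2 (Socs3 and Tyk2, background 27.4%) and WT cells 1 (Socs3, background 22.8%).

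Of the other 5 SOCS genes, Socs7 rose by 0.73 ± 0.12, Socs4 by 0.42 ± 0.08 and Socs6 by 0.37 ± 0.08 on the log2 scale (SE) under AO and passed, while none was called lower, where 33.7% of all genes passed. Of the 6 gp130 cytokine genes tested, Lif rose by 2.08 ± 0.35, Il11 by 0.97 ± 0.37 and Clcf1 by 0.68 ± 0.12. Of 16 STAT3 and STAT5 targets tested, 4 rose and 1 fell, no larger a share than over all genes, with Cebpb (1.44 ± 0.28), Myc (1.28 ± 0.11) and Junb (0.83 ± 0.24) among the higher ones. Of 13 other pathway inhibitors 4 rose, led by the phosphatase gene Ptpn2 (0.75 ± 0.09), and 3 fell. Of 19 other receptors that use Janus kinases, Il6ra rose by 1.09 ± 0.19 and Il4ra and Epor fell. Of 16 type II interferon targets Cxcl10 alone passed by edgeR, at 1.11 ± 0.38.

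The second comparison asks whether the N129D allele shifted the members. No member passed in hom against WT cells in any treatment, where 0.187% of all genes passed under poly(I:C), 0.0% under AO and 0.015% untreated. By edgeR at an unadjusted p under 0.05 the counts were 2 under poly(I:C) (Ifngr2 and Socs1), 0 under AO and 0 untreated, and DESeq2 called 1, 0 and 0, with 0.636% of all genes called under poly(I:C). No member passed in het against WT cells in any treatment either, with 0 at an unadjusted p under 0.05, 0 by DESeq2 and 0.0% of all genes passing.

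Socs1 under poly(I:C) was the member that differed most between genotypes, at 1.303 to 3.38 CPM in hom lines and 10.4 to 24.9 CPM in WT lines, with no overlap. The log2 difference was -2.59 ± 0.60 (SE), with a 95% interval from -3.83 to -1.34 and an edgeR adjusted p of 0.0721. Over the alternatives that left out 1 line, the adjusted p ran from 0.0108 to 0.555. It passed without het line E2.5 (adjusted p = 0.0137), without het line E2.6 (0.0108), with DESeq2 (0.00823) and with the E1 or E2 part of the line name as a covariate (0.0411). Without hom line E2.9, which had the highest macrophage marker sums, the difference was -2.84 (edgeR adjusted p = 0.307). The response itself, poly(I:C) over untreated, differed by -2.73 log2 units between hom and WT cells (SE 0.90, 95% interval from -4.58 to -0.89), with an edgeR adjusted p of 0.9999 over all genes, where 0.0% of genes passed.

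Under poly(I:C), 3 receptor chains lay higher in hom than in WT lines without overlap, which with Socs1 makes 4 of 10 members against 10.7% of all genes. Ifngr2 had 72.7 to 92.9 CPM in hom and 55.3 to 61.0 CPM in WT lines, a log2 difference of 0.48 ± 0.14 (edgeR adjusted p = 0.232). Ifnar1 had 77.9 to 87.0 CPM in hom and 69.7 to 71.9 CPM in WT lines, and Ifnar2 had 38.8 to 39.2 CPM in hom and 31.2 to 38.7 CPM in WT lines. Their log2 differences of 0.23 ± 0.13 and 0.16 ± 0.18 had 95% intervals that included 0 (edgeR adjusted p = 1 for both). Untreated, only Cish did not overlap, where 9.38% of all genes did not. It had 2.46 to 3.40 CPM in hom and 0.953 to 1.71 CPM in WT lines, a log2 difference of 1.01 ± 0.50 with a 95% interval from -0.01 to 2.04 (edgeR adjusted p = 0.976). Under AO, only Socs3 did not overlap, at 8.60 to 10.96 CPM in hom and 6.99 to 7.51 CPM in WT lines, where 9.11% of all genes did not (log2 difference 0.42 ± 0.47, edgeR adjusted p = 0.753). Line E2.9 had the highest Ifngr1 and Ifngr2 of the poly(I:C) libraries, at 58.8 and 92.9 CPM, and the highest macrophage marker sum, and the part of macrophages in these levels was not tested. In bulk RNA, fewer cells of a type and less RNA per cell cannot be told apart.

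**Figure D3:**
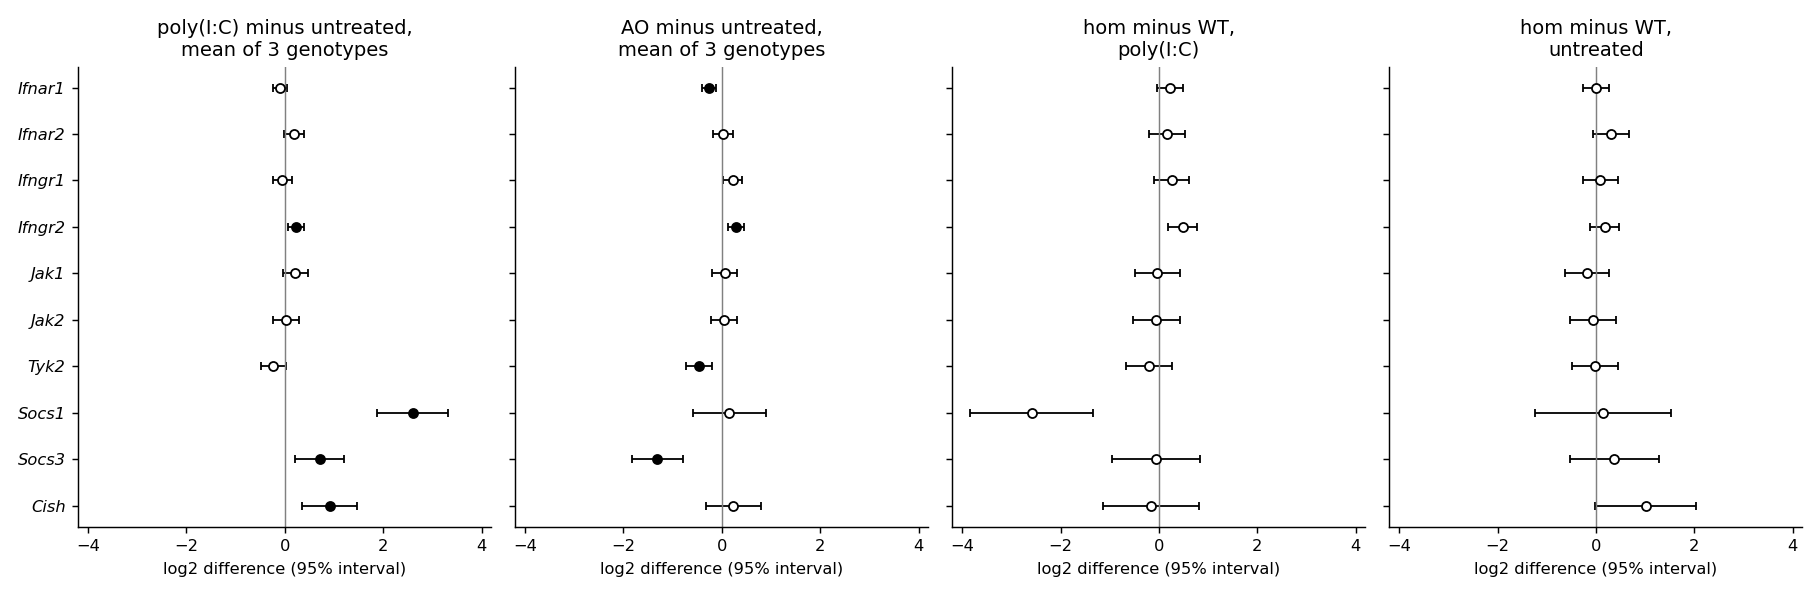
Log2 difference of each member with its 95% interval, from left to right for poly(I:C) against untreated and AO against untreated (mean of 3 genotypes), and for hom against WT under poly(I:C) and untreated. Filled points passed at an edgeR adjusted p under 0.05; the interval of Socs1 in hom against WT under poly(I:C), -3.83 to -1.34, lies left of 0 although the adjusted p did not pass over all genes.

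Ifnb1, the interferon beta gene, differed between genotypes in the same libraries. Under poly(I:C), Ifnb1 had 0.261, 0 and 0.534 CPM in hom lines, 18.9, 50.7, 7.41 and 10.8 CPM in het lines, and 22.7, 9.33 and 23.6 CPM in WT lines. Het line E2.5 had the most Ifnb1 and the most Socs1 (35.9 CPM) of the 10 lines, and het line E2.6 had the least of both among het and WT lines. Between these lines the order was not kept. WT line E1.5, with 22.7 CPM of Ifnb1, had 10.4 CPM of Socs1, and WT line E2.1, with 9.33 CPM of Ifnb1, had 11.4 CPM. Line E2.6 had 58.9 CPM of macrophage markers under poly(I:C), against at most 9.45 CPM in the other het and WT lines, and the part of other cells in its levels was not tested. Socs3 was not highest in het line E2.5, at 25.6 CPM, and hom line E2.2, with no Ifnb1 count, had 41.6 CPM of Socs3. Het line E2.6 had the least Socs3 as well, at 7.74 CPM, but was at 7.81 CPM untreated. In hom against WT cells under poly(I:C), Ifnb1 (-5.94 ± 0.92), Il6 (-2.90 ± 0.61) and Irf9 (-2.35 ± 0.48) were lower and passed by edgeR. Of 22 type I interferon targets 9 passed by edgeR, all lower, where 0.187% of all genes passed, and 20 by DESeq2, where 0.636% passed, among them Oasl1 (-5.17 ± 0.78), Ifih1 (-3.29 ± 0.56) and Ifit1 (-4.93 ± 0.88). Usp18, which holds off JAK1 at IFNAR2, was at -5.45 ± 1.21 (edgeR adjusted p = 0.0557).

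**Figure D4:**
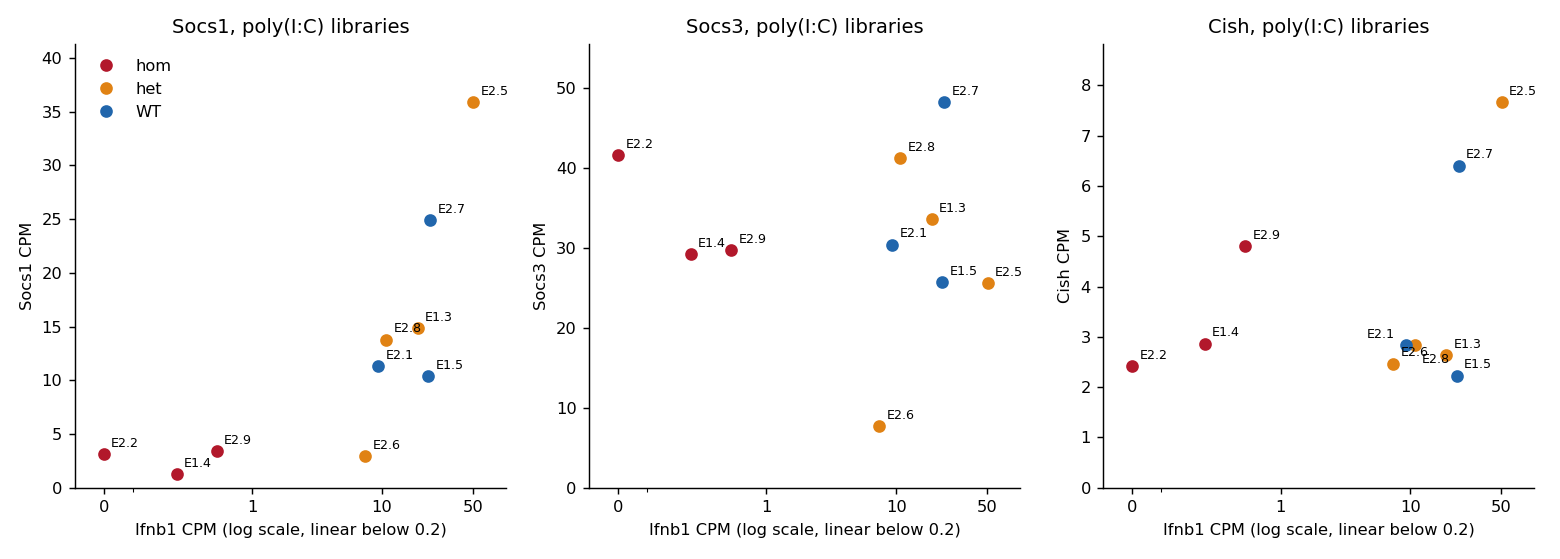
Socs1, Socs3 and Cish (CPM, linear axis) against Ifnb1 (CPM, log axis that is linear below 0.2) in the 10 poly(I:C) libraries, coloured hom, het and WT and marked with the line. For Socs1 the 3 hom lines sit at the lower left, with Ifnb1 up to 0.534 CPM and Socs1 up to 3.38 CPM, and het line E2.6 sits apart from the other het and WT lines.

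The genes whose pattern over the 30 libraries was most like that of each member differed from member to member. Likeness was Pearson's r of log2 CPM among 11867 genes, a description over libraries that share lines and treatments. For Socs1 these were Gbp5, an interferon-induced GTPase (r = 0.878, Spearman's rho = 0.724), and Il6 (r = 0.877, rho = 0.577). For Cish they were Nfkbie (r = 0.772, rho = 0.749) and Icam1 (r = 0.768, rho = 0.715), both known NF-kB targets. For Socs3 they were Hmgcs1, a cholesterol synthesis enzyme (r = 0.904, rho = 0.909), and Hdac1, a histone deacetylase (r = 0.902, rho = 0.891). For Jak1 they were Glis3 (r = 0.925) and Atrnl1 (r = 0.910), and without line E1.4 these fell to 0.817 and 0.552. For Ifnar1 they were Tmem164 and Med24, for Ifnar2 Mad2l2 and Eri3, for Ifngr1 Ppp2r5a and Tmem170b, for Ifngr2 Polr2m and Rela, for Jak2 Vma21 and Atp10a and for Tyk2 Tbc1d14 and Helb, with r from 0.730 to 0.879. Without line E2.5 the r of Jak2 fell to 0.593 with Vma21 and to 0.626 with Atp10a. Without line E2.6 the r of Ifngr1 with Tmem170b fell to 0.684.

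The last comparison set high against low cell density in WT line E1.5. Socs1, Cish, Socs3 and Jak2 were higher at high density, 4 of 10 members where 17.8% of all 12229 genes tested passed and 9.06% passed as higher. Socs1 had 20.1 CPM at high and 6.68 CPM at low density under poly(I:C), 2.53 and 1.08 CPM under AO, and 1.61 and 0.784 CPM untreated. Socs3 had 30.97 CPM at high and 20.4 CPM at low density under poly(I:C), 9.41 and 5.02 CPM under AO, and 19.03 and 11.45 CPM untreated. Cish had 4.05 CPM at high and 2.02 CPM at low density under poly(I:C), 2.07 and 0.896 CPM under AO, and 1.82 and 0.784 CPM untreated. The 3 inhibitors were thus higher at high density in each of the 3 treatments.

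Jak2 had 73.4 CPM at high and 40.9 CPM at low density under poly(I:C), 65.1 and 44.1 CPM under AO, and 55.8 and 40.8 CPM untreated. The log2 differences were 1.46 ± 0.26 for Socs1 (adjusted p = 0.00106), 1.11 ± 0.32 for Cish (0.0251), 0.71 ± 0.12 for Socs3 (0.000779) and 0.62 ± 0.09 for Jak2 (0.000273; SE, edgeR). Jak1 differed by -0.05 ± 0.06 with a 95% interval from -0.18 to 0.09, Tyk2 by 0.29 ± 0.14, and the 4 receptor chains by 0.09 to 0.26, none past the threshold. At an unadjusted p under 0.05 by edgeR the count was 6, with Ifnar2 and Ifngr2 added. Ifnar2 and Ifngr2 were also higher at high density in each treatment. Socs1 under poly(I:C) was 12.5-fold of untreated at high and 8.51-fold at low density, and Socs3 under AO was 0.494-fold at high and 0.438-fold at low density. Small changes of the receptor chains differed in direction: Ifngr2 under AO was 1.23-fold of untreated at high and 0.941-fold at low density, and Ifngr1 under poly(I:C) was 1.06-fold and 0.804-fold. With 1 library per density and treatment these folds have no replicate check.

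Interferon target genes moved with density as well. Of 22 type I targets 21 were higher at high density, and of 15 type II targets 14, where 9.06% of all genes tested passed as higher. Stat2 (1.63 ± 0.08), Irf9 (1.11 ± 0.08), Il6 (2.198 ± 0.28), Usp18 (2.48 ± 0.08) and Socs2 (0.65 ± 0.12) passed as higher by edgeR. Ifnb1 under poly(I:C) had 43.6 CPM at high and 1.62 CPM at low density. Low-density libraries had 5 or 6 counts of Socs1 and Cish outside poly(I:C), and depth was 16474011 counts or more at high and 6307963 or fewer at low density. The Cish call was lost when the libraries of any 1 treatment were left out (adjusted p up to 0.148) and with DESeq2 (0.285), and the Socs1 call was lost without the poly(I:C) pair (1.14, adjusted p = 0.13). Density, depth and any other difference between those cultures cannot be told apart.

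**Figure D5:**
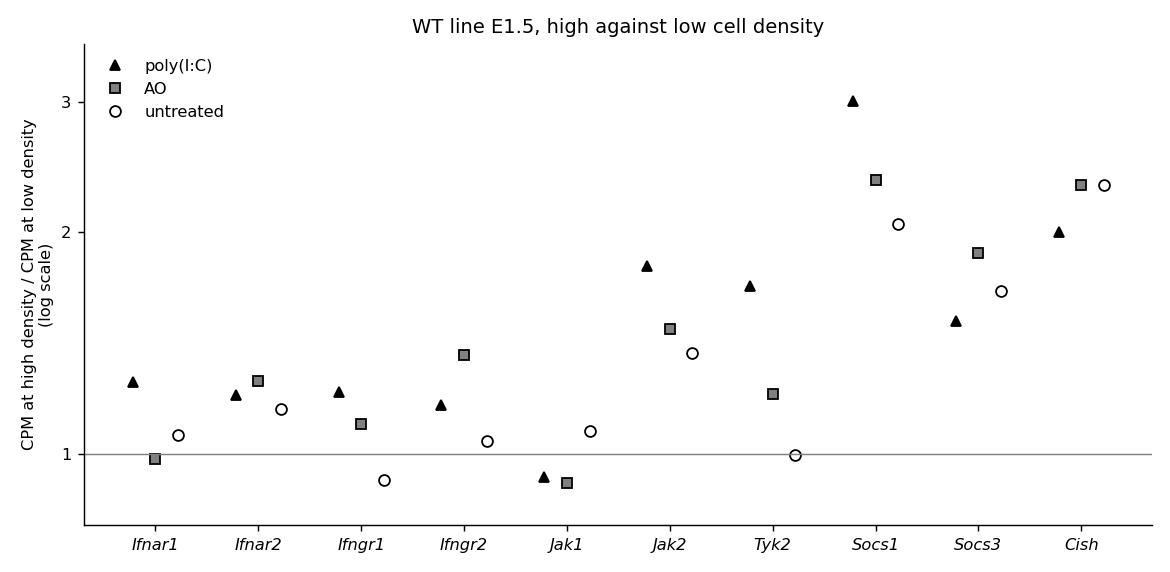
CPM at high density over CPM at low density (log axis) for each member in WT line E1.5, with 1 library per density and treatment; triangles are poly(I:C), squares AO and open circles untreated. Socs1, Socs3, Cish and Jak2, which passed, and Ifnar2 and Ifngr2, which did not, lie above 1 in all 3 treatments. Socs1 under poly(I:C) is at 3.01, and Ifnar2 and Ifngr2 under AO are at 1.25 and 1.36.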

How the data were processed

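RNA was extracted with RNeasy columns and libraries were made with a stranded TruSeq mRNA kit, per the labels' protocols. The authors deposited expected counts for each gene, which need not be whole, with 1 file for each library. The aligner STAR, the estimator RSEM and the build mm10 come per the submitters' processing notes; tool versions, annotation release and strand setting: not given in the sources used here. Reads that match more than 1 gene are divided among them by RSEM. Identifiers were matched to GENCODE vM21, on GRCm38; 49326 of 49585 matched.

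The deposited expected counts were rounded to integers. The 30 main libraries entered a single model in edgeR 4.0.16 (R 4.3.3) (TMM, filterByExpr with minimum count 10 and minimum total 15, 1 coefficient per group, robust quasi-likelihood F test), and p-values were Benjamini-Hochberg adjusted over all genes tested, with a threshold of 0.05. This shared spread treats the libraries of 1 line as independent. The contrast over 3 genotypes weights each equally. The 9 libraries of line E1.5 were fitted with terms for density and treatment. CPM are scaled by TMM, and changes within a line use CPM plus 0.5. The test was tried on simulated counts.

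The members, gene lists and comparisons were chosen with earlier results of these data known. The genes named besides members were, per list, the 3 with the smallest p, plus Ifnb1, Il6, Lif, Irf9, Usp18 and Socs2, with 1 further gene of that rule not reported here; for likeness, the 2 genes of highest Pearson's r among genes whose log2 CPM averaged 1 or more; promoters were shown for the inhibitors. Cell type marker lists were summed in CPM. Per the labels' titles, each line appears under every treatment, and libraries of 1 line are therefore paired; deviations from group means of such pairs correlated by 0.342 to 0.765 over 30 pairs. Libraries of a group differed by 5.35 to 61.2 chi-square per degree of freedom, above sampling noise. Alternatives were RLE factors, no low-count filter, DESeq2 1.42.0, the replicate block, fits on the compared groups only, a covariate for E1 or E2 in line names, and omission of each line in turn. Depth is counted in reads without molecular identifiers, so floors (3 counts where none was seen) cover counting error only.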

Additional observations from a re-analysis of the deposited data

Results flagged for a closer look

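In 30 sets of 4 het lines (10 members in 3 treatments), 3 held a line far from the other 3, by a gap over range above Dixon's 95% critical value; chance alone marks about 1 in 20 such sets. Cish under poly(I:C) was 7.67 CPM in het line E2.5, with the other het lines at 2.47, 2.64 and 2.83 CPM (gap over range 0.930). Ifngr2 under poly(I:C) was 50.7 CPM in het line E2.6, below 64.1, 64.2 and 66.5 CPM in the others (0.846). Jak1 in untreated cells was 350.5 CPM in het line E2.8, above 284.1, 286.3 and 289.6 CPM in the others (0.917). Line E2.5 also had the most Ifnb1 (50.7 CPM) and Socs1 (35.9 CPM) under poly(I:C), and line E2.6 the least Ifnb1 of the het and WT lines (7.41 CPM), with raised macrophage markers (58.9 CPM). The part of these in the values above was not tested.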

How the results depend on the processing

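No called log2 change of a member changed sign under any alternative that was run: 2698 values stayed on the same side of the threshold, 40 gained a call and 30 lost one. Counts of called members moved as follows. With line as a replicate block, poly(I:C) called 7 over the mean of genotypes against 4 without it, 2 against 0 in hom, 2 against 1 in het and 3 against 1 in WT cells, and AO called 3 in hom, 2 in het and 1 in WT cells against 0 in each; the block changed no call in the differences between responses. DESeq2 called 1 member in hom, 2 in het and 1 in WT cells under AO, and 1 in hom against WT cells under poly(I:C), against 0 in each by edgeR. On the compared groups alone the counts were 1 in het and 2 in WT cells under AO, and 0 in het cells under poly(I:C). The E1 or E2 covariate gave 1 in hom against WT cells under poly(I:C), and no low-count filter gave 2 for poly(I:C) over the mean of genotypes. Leaving out each line in turn gave 0 to 1 under AO within each genotype and 4 to 5 over their mean, and for poly(I:C) 0 to 1 in hom, 1 to 2 in het, 0 to 2 in WT cells and 1 to 5 over their mean. It gave 0 to 1 in hom against WT cells under poly(I:C), and for density, leaving out each treatment, 2 to 3 against 4. In those fits the smaller groups borrow the spread of the others. Among other genes of the pathway, DESeq2 called 20 of 22 type I and 8 of 16 type II interferon targets lower in hom against WT cells under poly(I:C), against 9 and 0 by edgeR, and the replicate block called 5 inhibitors lower under poly(I:C) and 5 JAK and STAT partners lower under AO, against 1 and 1. RLE factors moved no count by more than 1.5 times. The causes of these moves were not tested. Depth limits Socs1 and Cish, with as few as 3 and 6 counts in a library.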
